A study of Homo sapiens with 6 samples.

Results

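The 10 genes CCND1, CCNE1, CCNA2, CCNB1, CDK1, CDK2, CDK4, CDK6, RB1 and E2F1 encode cyclins, cyclin-dependent kinases and the RB-E2F pair that together control the cell division cycle. They were picked by their gene names from the 12180 genes and 33090 transcripts of an RNA-seq data set of TE1 cells, and all 10 were found, with 33 transcripts between them. TE1 is an established human cell line of esophageal squamous cell carcinoma (ESCC). The cells carried a lentiviral vector with FGL1 (FGL1-OE, 3 libraries) or a vector with random nonsense sequences (NC, 3 libraries). The labels call the controls wild type, while the study describes a control vector for them, so they are named NC here. No irradiation or other treatment is given in the labels, and nothing in them says whether the 3 libraries of a group came from separate cultures or separate infections, so the p-values measure only the spread between these libraries, which may be technical. The question was how much mRNA of each gene FGL1-OE cells held compared with NC cells. FGL1, fibrinogen-like protein 1, is a secreted protein made mostly by liver cells.

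A cyclin binds a CDK and switches its kinase activity on, and the level of each cyclin rises and falls at its own time in the cycle. In G1 phase, cyclin D with CDK4 or CDK6 and then cyclin E with CDK2 phosphorylate RB1, which releases E2F1 and lets it switch on the genes of DNA replication. Cyclin A2 acts with CDK2 and CDK1 through S and G2 phase, and cyclin B1 with CDK1 starts mitosis. In squamous cell carcinomas, CCND1 and CDK6 are known targets of amplification, and loss of CDK inhibitors is common.

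Values are FPKM, the number of fragments of a transcript divided by its length and by the size of the library. FGL1 itself measured 0.0202, 0 and 0.106 FPKM in NC 1, NC 2 and NC 3, against 33.5, 39.3 and 39.9 FPKM in FGL1-OE, with a log2 fold change of 5.21 (SE 0.147) on the log2(FPKM + 1) scale and an adjusted p of 1.29e-05 (limma). It was the 1 gene of 12017 tested that passed an adjusted p of 0.05. The epithelial markers KRT8, KRT18 and KRT19 were between 217.8 and 917.0 FPKM in every library. Of 10 squamous markers 8 had values. TP63 and KRT5, which define basal squamous cells, were low, at no more than 0.779 and 6.24 FPKM, while KRT6A was at 108.3 to 197.2 FPKM, SFN at 198.0 to 459.0 and PERP at 41.3 to 81.4, and KRT17, DSG3 and S100A2 were between 6.13 and 15.8 FPKM. KRT6A and the epithelial marker CDH1 were higher in each FGL1-OE library than in any NC library, with log2 fold changes of 0.50 and 0.54, unadjusted p-values of 0.0241 and 0.0263 and adjusted p-values of 1.00 (limma), and their part in the results was not tested. COL1A1 of fibroblasts was at no more than 5.55 FPKM and CD68 of macrophages at no more than 5.73 FPKM. Pearson's r between libraries was between 0.885 and 0.986, across genes, which are not independent replicates. The lowest value was that of NC 1 with NC 2, which stood apart from each other. The files hold no read counts, and the depth of the libraries is unknown.

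Among the G1 genes, CCND1 was even across all 6 libraries. CCND1 (chr11:69455855-69469242, GRCh37), cyclin D1, was at 63.7, 57.5 and 65.6 FPKM in NC and at 61.2, 65.3 and 65.6 FPKM in FGL1-OE. The groups overlapped, and the log2 fold change was 0.04 (SE 0.140, 95% confidence interval -0.29 to 0.37). In a bulk library, fewer cells in a phase of the cycle and less RNA of a gene in each cell cannot be told apart.

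CDK4 (chr12:58141510-58149796), the kinase partner of cyclin D1, was at 41.3, 43.7 and 36.9 FPKM in NC and at 40.6, 32.8 and 37.5 FPKM in FGL1-OE. NC 1 and NC 2 were the 2 highest and FGL1-OE 2 the lowest, with a log2 fold change of -0.14 (SE 0.155, interval -0.50 to 0.23). CDK6 (chr7:92234235-92465908), the second kinase of cyclin D, was at 2.68, 5.63 and 3.34 FPKM in NC and at 3.90, 5.01 and 4.37 FPKM in FGL1-OE. All FGL1-OE values lay between those of NC 3 and NC 2, and the log2 fold change was 0.19 (SE 0.235, interval -0.35 to 0.74). In every library CDK4 was far above CDK6.

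At the passage from G1 to S phase, cyclin E1 was higher in each FGL1-OE library than in any NC library, by a small margin. CCNE1 (chr19:30302805-30315215) was at 8.58, 12.0 and 11.8 FPKM in NC and at 13.3, 14.0 and 12.6 FPKM in FGL1-OE, with a log2 fold change of 0.29 (SE 0.171, interval -0.11 to 0.69, unadjusted p = 0.133, adjusted p = 1.00, limma). The low value of NC 1 sets much of this size, since without NC 1 the log2 fold change was 0.14. CDK2 (chr12:56360553-56366568), the kinase that cyclin E1 and cyclin A2 activate, was at 20.5, 17.9 and 14.4 FPKM in NC and at 19.3, 20.1 and 14.6 FPKM in FGL1-OE. The groups overlapped over nearly their whole range, with a log2 fold change of 0.03 (SE 0.194, interval -0.42 to 0.49). The summed transcript values of CDK2 gave a larger log2 fold change, of 0.39 (SE 0.291). Its main transcript, ENST00000266970, was at 10.8, 25.3 and 14.3 FPKM in NC and at 21.5, 19.9 and 22.3 FPKM in FGL1-OE, with overlapping groups.

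Of the genes that peak in S, G2 and M phase, CCNB1 had the lowest p-value among the 10. CCNB1 (chr5:68462837-68474072), cyclin B1, was at 37.2, 55.7 and 52.2 FPKM in NC and at 64.6, 59.6 and 63.6 FPKM in FGL1-OE. Each FGL1-OE library was above every NC library, with a log2 fold change of 0.39 (SE 0.186, interval -0.05 to 0.82). The unadjusted p was 0.0730, which put CCNB1 at rank 370 of the 12017 genes, and the adjusted p was 1.00 (limma). NC 1 again had the lowest value, and without NC 1 the log2 fold change was 0.21.

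CDK1 (chr10:62538089-62554610), the kinase of mitosis, had the widest spread within a group on the log2(FPKM + 1) scale, while the largest ratio between libraries of a group was that of RB1. Its values were 28.5, 72.4 and 44.0 FPKM in NC and 44.2, 52.9 and 48.7 FPKM in FGL1-OE, so the 3 FGL1-OE values lay inside the NC range. Its log2 fold change was 0.10 (SE 0.310, interval -0.62 to 0.83), and it was -0.22 without NC 1 and 0.44 without NC 2. CCNA2 (chr4:122737599-122745088), cyclin A2, was at 29.0, 37.6 and 26.3 FPKM in NC and at 31.0, 34.3 and 33.9 FPKM in FGL1-OE. Here too NC 2 was the highest of all libraries, and the log2 fold change was 0.11 (SE 0.174, interval -0.30 to 0.51).

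RB1 and E2F1, the brake and the transcription factor it holds, showed opposite patterns among the NC libraries. RB1 (chr13:48877887-49056122) was at 0.739, 2.78 and 1.20 FPKM in NC and at 1.84, 2.56 and 2.05 FPKM in FGL1-OE, lowest in NC 1 and highest in NC 2. E2F1 (chr20:32263489-32274210) was at 34.1, 18.8 and 24.3 FPKM in NC and at 26.3, 22.6 and 23.4 FPKM in FGL1-OE, highest in NC 1 and lowest in NC 2. Both had all 3 FGL1-OE libraries within the NC range. The log2 fold change was 0.36 (SE 0.283, interval -0.29 to 1.02) for RB1. For E2F1 it was -0.06 (SE 0.222, interval -0.57 to 0.46), and it was 0.16 without NC 1 and -0.25 without NC 2.

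**Figure D1:**
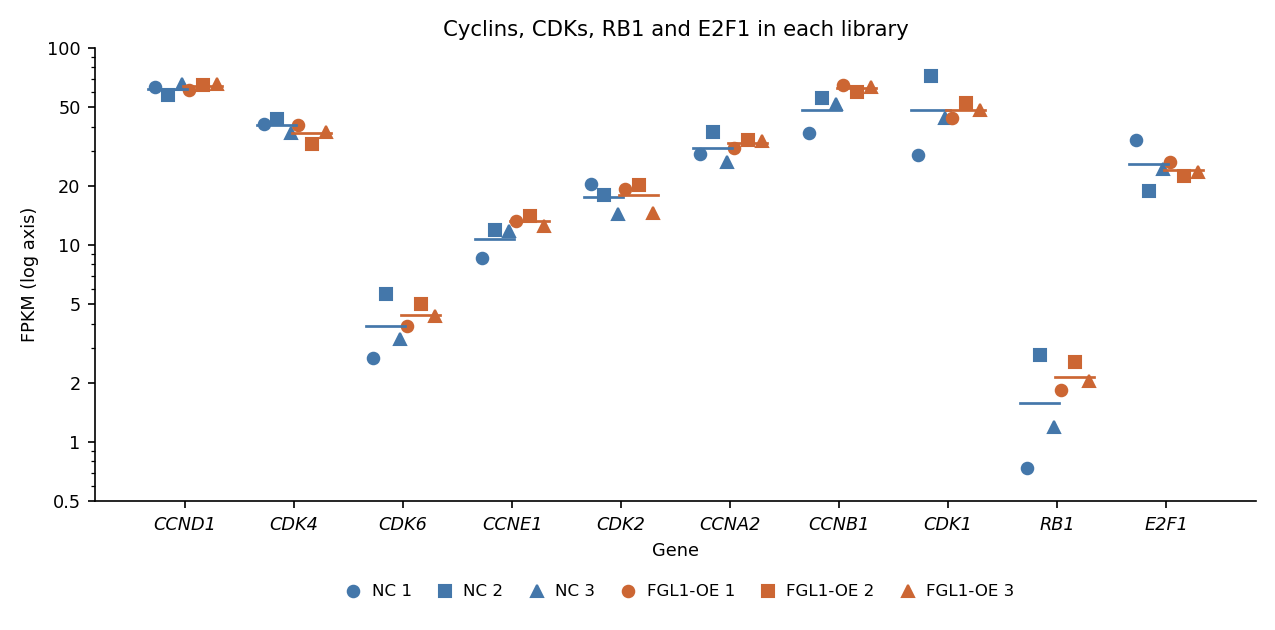
FPKM of the 10 genes (log axis) in each of the 6 libraries, with NC in blue and FGL1-OE in orange, a symbol for each library and a line at the group mean. CCNE1 and CCNB1 have every FGL1-OE library above every NC library, while CDK1, CDK6 and RB1 have NC 1 lowest and NC 2 highest.

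By mean level over the 6 libraries the order was CCND1 (63.2 FPKM), CCNB1 (55.5), CDK1 (48.4), CDK4 (38.8), CCNA2 (32.0), E2F1 (24.9), CDK2 (17.8), CCNE1 (12.0), CDK6 (4.15) and RB1 (1.86 FPKM). Neighbours in this order had ranges that overlapped, except CDK2 above CCNE1 and CCNE1 above CDK6. Although the ranges of CDK6 and RB1 overlapped, CDK6 was above RB1 in 6 of 6 libraries, by a ratio of 1.96 to 3.62. The order of the first 6 genes was thus not fixed by these libraries, and the low place of CDK6 and RB1 was the same in each of them.

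None of the 10 genes passed an adjusted p of 0.05 or an unadjusted p of 0.05 (limma), against 0.00832% and 2.01% of all genes tested. For 2 of the 10, CCNE1 and CCNB1, the groups did not overlap, with FGL1-OE higher in both, and this held for 7.15% of all genes, 4.09% with FGL1-OE higher. The log2 fold change was above 0 for 8 of the 10 genes with a median of 0.11, against 53.7% of all genes and a median of 0.02. In an exact two-sided permutation test CCNE1 and CCNB1 each had p = 0.1, the smallest value that 3 against 3 libraries allow. The intervals reach from -0.62 at the low end, for CDK1, to 1.02 at the high end, for RB1, while that of CCND1 was narrower, at -0.29 to 0.37. They are on the log2(FPKM + 1) scale, which understates the change of low genes such as RB1, so 1.02 is not a firm upper limit. With a pseudocount of 0.1 the log2 fold change of RB1 was 0.61 (SE 0.428), and with TPM scaling it was 0.56 (SE 0.381). Leaving out NC 2 gave 3 genes with an unadjusted p under 0.05, which were CCNB1 (0.0214), CDK6 (0.0226) and RB1 (0.00437), with adjusted p-values of 0.194 or more (limma), while 21.8% of all genes had an unadjusted p under 0.05 in that fit. Weighting each library by its agreement with the others of its group gave CCNA2 (adjusted p = 0.0391) and RB1 (adjusted p = 0.0278) as the 2 genes of the 10 past an adjusted p of 0.05 (limma), against 11.0% of all genes. The weights were 0.230 for NC 1, 0.141 for NC 2 and 5.59 for NC 3, so the NC side of that fit rested mostly on NC 3. NC 3 measured 26.3 FPKM for CCNA2, the lowest of the 6 libraries, and 1.20 FPKM for RB1.

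**Figure D2:**
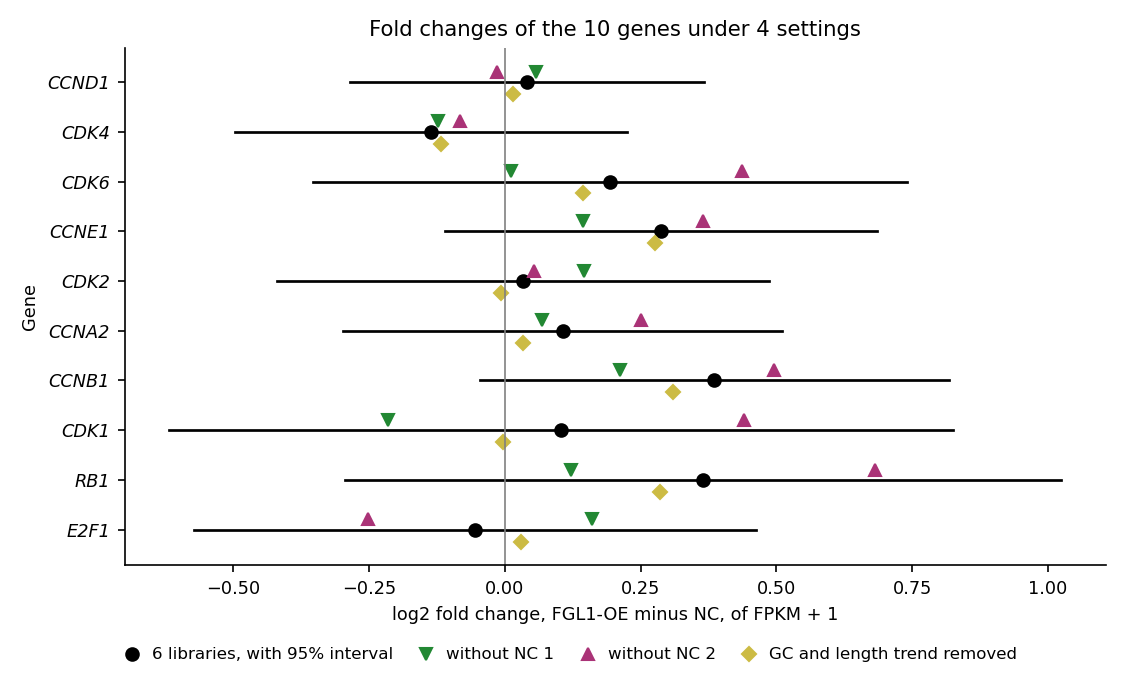
Log2 fold change (FGL1-OE minus NC, of FPKM + 1) of the 10 genes, with black points and lines for the value and 95% interval from 6 libraries, triangles for the values without NC 1 or without NC 2, and diamonds for the values after removal of the trend with GC content and length. All 10 intervals include 0, and the points of CDK1, CDK6, RB1 and E2F1 move most when 1 NC library is left out.

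The differences among the NC libraries ran along the GC content of the transcripts. Across 11775 genes with a known GC content, the log2 difference between NC 2 and NC 1 had a Spearman's rho of -0.788 with GC content, given here as a description. The 10 genes span this axis. CDK1 at 35.6% GC, RB1 at 37.3% and CDK6 at 39.5% were higher in NC 2 than in NC 1 by 1.31, 1.12 and 0.85 on the log2 scale. E2F1, with 62.5% GC the richest of the 10, was lower in NC 2 by the log2 difference of -0.82. CCNB1 at 43.2% GC and CCNA2 at 42.2% differed by 0.57 and 0.36, and CCND1 at 50.3%, near the median of 50.1% over all genes, by -0.14. CDK2 at 48.4% was lower in NC 2 by the difference of -0.18, whereas CCNE1 at 52.9% and CDK4 at 57.3%, the second richest of the 10, were higher in NC 2, by 0.44 and 0.08. The GC content of CDK4 is that of its transcript ENST00000547281, which held 65.7% of the CDK4 transcript FPKM in NC 1 and 4.05% in NC 2. ENST00000257904, with 64.0% in NC 2, has 53.6% GC. The SD within NC was larger than that within FGL1-OE for 9 of the 10 genes and for 84.1% of all genes, and the 10 genes had a median SD (log2) of 0.28 within NC against 0.12 within FGL1-OE.

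**Figure D3:**
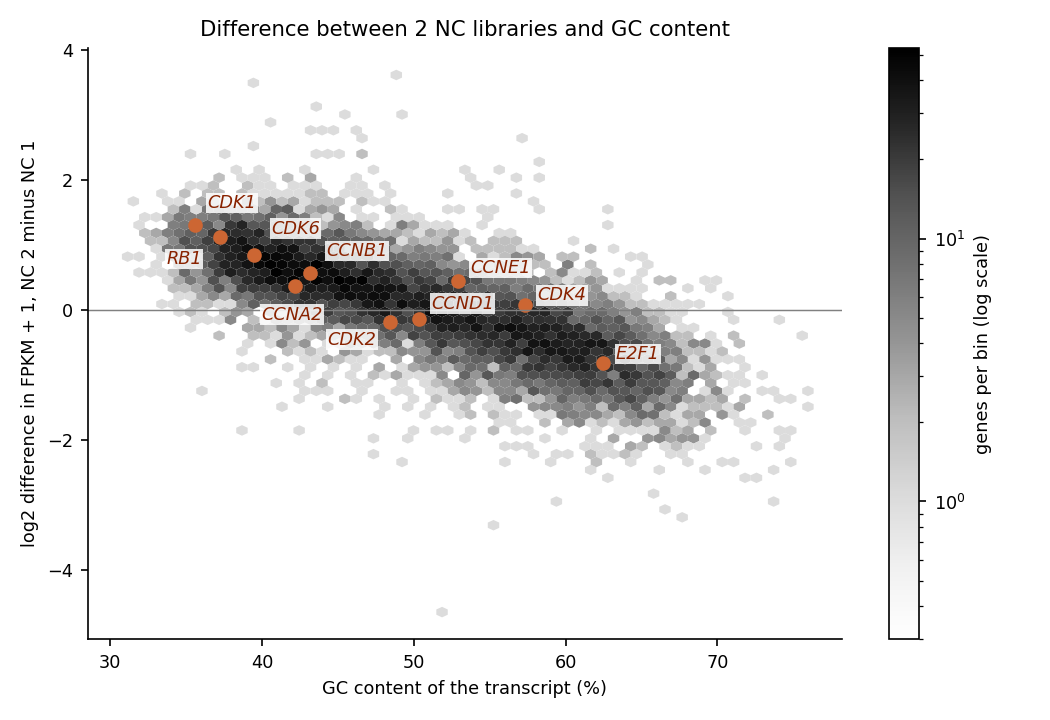
Log2 difference in FPKM + 1 between NC 2 and NC 1 against the GC content (%) of each gene's most abundant transcript, with grey bins for 11775 genes (shade on a log scale of genes per bin) and orange points for the 10 cell cycle genes. The 10 genes lie within the falling cloud of the other genes, from CDK1 at 1.31 to E2F1 at -0.82.

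When the trend with GC content and length was removed from each library, an alternative chosen after the data were seen, the spread of most of the 10 genes among the NC libraries shrank. The SD within NC went from 0.66 to 0.20 for CDK1, from 0.44 to 0.10 for CDK6, from 0.57 to 0.11 for RB1 and from 0.41 to 0.10 for E2F1. It was smaller for 6 of the 10 genes and larger for CCND1, CCNE1, CDK2 and CDK4. The median SD within NC over 11775 genes went from 0.31 to 0.18, and the trend was fitted to these same libraries. The log2 fold changes were then 0.31 (SE 0.110) for CCNB1 and 0.29 (SE 0.104) for RB1, and for both the groups did not overlap. Their unadjusted p-values were 0.0256 and 0.0276 and their adjusted p-values 0.753 (limma), while 6.39% of all genes had an unadjusted p under 0.05 and 14.3% had groups that did not overlap. For CCNE1 the value was 0.28, against 0.29 before removal, and the groups overlapped by a narrow margin. NC 2 was at 3.770 and FGL1-OE 3 at 3.763 on the log2 scale. The log2 fold changes of CDK1 (-0.0027), CDK2 (-0.0074) and E2F1 (0.03) came out near 0. Whether the GC trend has a part in the differences between groups was not tested.

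The promoters of 5 of the genes are shown, CCNE1 and CCNB1 because their groups did not overlap, and CCNA2, CDK1 and E2F1, chosen after the matches were seen, because they hold the elements by which cell cycle genes are known to be timed. E2F factors bind sites such as TTTNNCGC. The DREAM complex, which represses these genes in resting cells, and, later in the cycle, MYBL2 and FOXM1 act through the cell cycle homology region (CHR), which is spelled TTTGAA in some genes. The spellings TTTAAA and, in cyclin A2, CTTGAA are known too, and CCAAT boxes bound by NF-Y often lie nearby. RefSeq promoter sequences (GRCh38.p14) were found for 8 of the 10 genes, though the entry of RB1 lies at a start inside the gene. In CDK4, CDK6 and RB1 the 150 bases before the start held no match of the motifs named above, and they are not shown. In the following 150 bases before each RefSeq start, read 5′ to 3′ on the gene's strand, capitals mark each match of these 5 motifs on either strand, and the last 2 matches in E2F1 overlap. CDK1 has 2 starts in RefSeq, and the window before the later of them is shown. The window before the earlier start held TTTAAA at 131 bases and CCAAT at 150 bases, and no TTTNNCGC, TTTGAA or CTTGAA.
CCNE1 (chr19:29811841-29811990, plus strand): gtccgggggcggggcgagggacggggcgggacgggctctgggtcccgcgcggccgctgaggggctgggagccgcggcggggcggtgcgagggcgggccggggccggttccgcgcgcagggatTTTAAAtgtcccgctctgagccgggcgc
CCNA2 (chr4:121823884-121824033, minus strand): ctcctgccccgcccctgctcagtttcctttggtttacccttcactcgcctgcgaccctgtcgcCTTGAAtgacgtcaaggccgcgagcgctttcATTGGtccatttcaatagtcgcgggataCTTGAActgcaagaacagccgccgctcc
CCNB1 (chr5:69167000-69167149, plus strand): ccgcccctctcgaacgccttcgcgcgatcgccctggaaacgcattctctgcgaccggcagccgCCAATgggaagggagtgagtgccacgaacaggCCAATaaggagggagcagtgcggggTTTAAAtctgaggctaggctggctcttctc
CDK1 (chr10:60778328-60778477, plus strand): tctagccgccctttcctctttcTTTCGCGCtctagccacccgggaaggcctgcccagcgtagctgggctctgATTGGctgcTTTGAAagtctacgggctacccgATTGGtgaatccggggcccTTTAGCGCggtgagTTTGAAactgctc
E2F1 (chr20:33686386-33686535, minus strand): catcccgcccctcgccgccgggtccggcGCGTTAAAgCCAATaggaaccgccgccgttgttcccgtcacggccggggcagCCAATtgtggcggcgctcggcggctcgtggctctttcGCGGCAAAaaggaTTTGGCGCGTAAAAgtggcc

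CDK1 held TTTNNCGC at 128 and 27 bases before the start, TTTGAA at 69 and 13 bases, and CCAAT at 78 and 46 bases. E2F1 held 4 matches of TTTNNCGC, 122, 33, 20 and 14 bases before its start, and CCAAT at 113 and 70 bases. CCNB1 held TTTAAA at 30 bases and CCAAT at 87 and 55 bases, and CCNA2 held CTTGAA at 87 and 28 bases and CCAAT at 56 bases. In CCNE1 the match was TTTAAA at 28 bases, in a window of 80.7% GC. Among 35116 RefSeq promoters, 3.69% held TTTNNCGC in these 150 bases, 16.8% held any of the 3 CHR spellings and 23.5% held CCAAT. A match of letters is a description and does not show that a factor was bound. Of the 3 genes with both a CHR spelling and CCAAT in the window, CCNB1 was higher in every FGL1-OE library, and CDK1 and CCNA2 overlapped between groups.

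At the transcript level 32 of the 33 transcripts of the 10 genes were tested, and none passed an adjusted p or an unadjusted p of 0.05 (limma), against 0.0165% and 3.53% of all 30330 transcripts tested. For 3 of the 32 the groups did not overlap, with FGL1-OE higher in each, and this held for 8.22% of all transcripts, 4.65% with FGL1-OE higher. CCNA2, RB1 and E2F1 had 1 transcript each, and the long transcripts of CCND1 and CDK2 held at least 95.1% of their gene's summed transcript FPKM in every library. The 5 other genes divided their FPKM among 2 to 9 transcripts that share parts of their sequence.

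CDK1 is the clearest example. Its transcript ENST00000395284 encodes the whole kinase, with a coding sequence of 891 bases. ENST00000316629 and ENST00000373809 lack an exon of 171 bases inside the coding sequence (chr10:60788060-60788230, GRCh38, GENCODE v29, plus strand) and have 720 coding bases, a loss that keeps the reading frame. The first sequence below shows this exon in capitals with 30 bases of each neighbouring exon, and the second the junction that replaces it, with the exon after the junction in capitals.
CDK1 with the exon: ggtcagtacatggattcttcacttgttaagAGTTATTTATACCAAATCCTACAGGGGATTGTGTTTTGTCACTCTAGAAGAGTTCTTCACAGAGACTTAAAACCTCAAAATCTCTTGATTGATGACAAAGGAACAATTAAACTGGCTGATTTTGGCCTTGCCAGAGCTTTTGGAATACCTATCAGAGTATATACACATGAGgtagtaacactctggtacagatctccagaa
CDK1 without the exon: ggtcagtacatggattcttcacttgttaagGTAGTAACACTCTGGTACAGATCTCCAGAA

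The forms without the exon summed to 1.64, 9.00 and 10.2 FPKM in NC and to 2.97, 27.5 and 38.1 FPKM in FGL1-OE, a grouping chosen after the values were seen. As a share of all CDK1 transcript FPKM this was 2.87%, 6.56% and 11.6% in NC and 3.44%, 26.1% and 37.7% in FGL1-OE. FGL1-OE 2 and FGL1-OE 3 were high, FGL1-OE 1 was low, and the groups overlapped. In FGL1-OE 2 the share lay in ENST00000316629, at 26.4 FPKM against no more than 1.23 FPKM in any other library. In FGL1-OE 3 it lay in ENST00000373809, at 38.0 FPKM against no more than 9.14 FPKM elsewhere. Both contain the same junction, and neither has any stretch of 40 bases that is not also in another CDK1 transcript in the table, and whether the division of shared reads has a part in these values was not tested. ENST00000395284 was at 16.6, 76.6 and 40.9 FPKM in NC and at 50.3, 49.9 and 21.3 FPKM in FGL1-OE, also without any stretch of its own, and its log2 fold change was 0.0073 (SE 0.625). ENST00000614696, with 672 coding bases, was at 30.8, 48.3 and 32.5 FPKM in NC and at 28.9, 25.8 and 40.7 FPKM in FGL1-OE.

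CCNB1 was mostly its full-length transcript ENST00000256442, with 1299 coding bases, in every library but NC 1, where ENST00000506572, with 1203, was the larger. The first was at 22.1, 59.9 and 52.5 FPKM in NC and at 65.3, 61.6 and 66.4 FPKM in FGL1-OE, with no overlap, a log2 fold change of 0.63 (SE 0.407) and an unadjusted p of 0.170. In NC 1 ENST00000256442 had 37.5% of the CCNB1 transcript FPKM and ENST00000506572 had 47.9%, while in the other 5 libraries the first had at least 73.8% and the second at most 10.1%. Without NC 1 the log2 fold change of ENST00000256442 was 0.20.

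ENST00000508407 of CCNB1 lacks an exon of 159 coding bases (chr5:69174251-69174409, GRCh38, plus strand) and is shown because its groups did not overlap. The lack of this exon is not its only difference from ENST00000256442. It is a shorter entry, of 780 bases in 5 exons with 733 coding bases, against 2169 bases in 9 exons with 1299. It also ends earlier, at chr5:68470890 against 68474072 (GRCh37). Capitals mark the exon in the first sequence and the exon after the junction in the second.
CCNB1 with the exon: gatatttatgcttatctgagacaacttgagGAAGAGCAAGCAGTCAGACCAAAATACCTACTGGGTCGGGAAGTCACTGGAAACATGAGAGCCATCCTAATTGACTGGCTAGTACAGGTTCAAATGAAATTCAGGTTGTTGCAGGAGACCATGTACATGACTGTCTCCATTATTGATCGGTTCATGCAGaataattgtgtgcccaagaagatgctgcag
CCNB1 without the exon: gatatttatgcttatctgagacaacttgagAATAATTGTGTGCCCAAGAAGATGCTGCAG

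This transcript measured 2.20, 4.73 and 6.86 FPKM in NC and 8.05, 9.97 and 7.24 FPKM in FGL1-OE. The lowest FGL1-OE library, at 7.24, was close to NC 3, at 6.86. The log2 fold change was 0.83 (SE 0.379, interval -0.08 to 1.75), with an unadjusted p of 0.0681 and an adjusted p of 1.00 (limma). The log2 fold change was 0.48 without NC 1 and 0.39 with array weights, which weight each library by its agreement with the others of its group. In this transcript 4.99% of the stretches of 40 bases were in no other CCNB1 transcript in the table. As a share of CCNB1 it was 6.69% ± 2.96 (SD, n = 3) in NC and 10.2% ± 2.03 (SD, n = 3) in FGL1-OE, with groups that overlapped. The short ENST00000507798 had 3.92% ± 0.827 (SD, n = 3) of CCNB1 in NC and 2.43% ± 0.517 (SD, n = 3) in FGL1-OE. Its shares did not overlap, while its FPKM values did. An exact two-sided permutation test of its share gave p = 0.1, the smallest value that 3 against 3 libraries allow. This transcript was chosen after the shares were seen, and how often shares do not overlap over all transcripts was not counted.

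The composition of CDK4 differed widely among the NC libraries. ENST00000547281, its most abundant transcript by mean FPKM, was at 86.8, 3.21 and 50.2 FPKM in NC and at 26.4, 22.0 and 19.8 FPKM in FGL1-OE. ENST00000257904, which encodes the whole kinase in 909 bases, was at 10.4, 50.8 and 19.8 FPKM in NC and at 32.9, 24.2 and 34.9 FPKM in FGL1-OE. The transcripts differ at both ends. ENST00000547281 has 825 bases, 559 of them coding, against 2076 and 909 in ENST00000257904. On the minus strand ENST00000547281 ends earlier, at chr12:58143003 against 58141510 (GRCh37). At the start ENST00000547281 lacks 58 coding bases with the start codon (chr12:57751660-57751717, GRCh38, minus strand), shown in capitals with the 30 bases that follow in both.
CDK4 start of the coding sequence: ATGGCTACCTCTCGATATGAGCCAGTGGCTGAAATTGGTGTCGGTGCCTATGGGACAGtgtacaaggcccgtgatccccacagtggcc

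For these 2 transcripts 4.71% and 3.63% of the stretches of 40 bases were their own. ENST00000547281 went from 65.7% of the CDK4 transcript FPKM in NC 1 to 4.05% in NC 2, and the FGL1-OE libraries lay between, at 26.4% to 29.2%. Its log2 fold change was -0.18 (SE 1.10), and it was 0.68 without NC 1 and -1.51 without NC 2. ENST00000312990, which codes for 333 bases, was at 12.1, 0.942 and 12.0 FPKM in NC and at 15.4, 12.6 and 13.7 FPKM in FGL1-OE. Its groups did not overlap, but NC 1 and NC 3 were close to the FGL1-OE values and NC 2 far below, and its log2 fold change of 1.10 (SE 0.761, unadjusted p = 0.195) was 0.19 without NC 2. Its share of CDK4 was 9.12%, 1.19% and 11.9% in NC and 17.0%, 16.5% and 18.3% in FGL1-OE. ENST00000547853, a fragment below the limit for testing, was at 0.366, 0.774 and 0.502 FPKM in NC and at 0.174, 0.319 and 0.339 FPKM in FGL1-OE. Its groups did not overlap either, with FGL1-OE lower, at values near the floor.

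**Figure D4:**
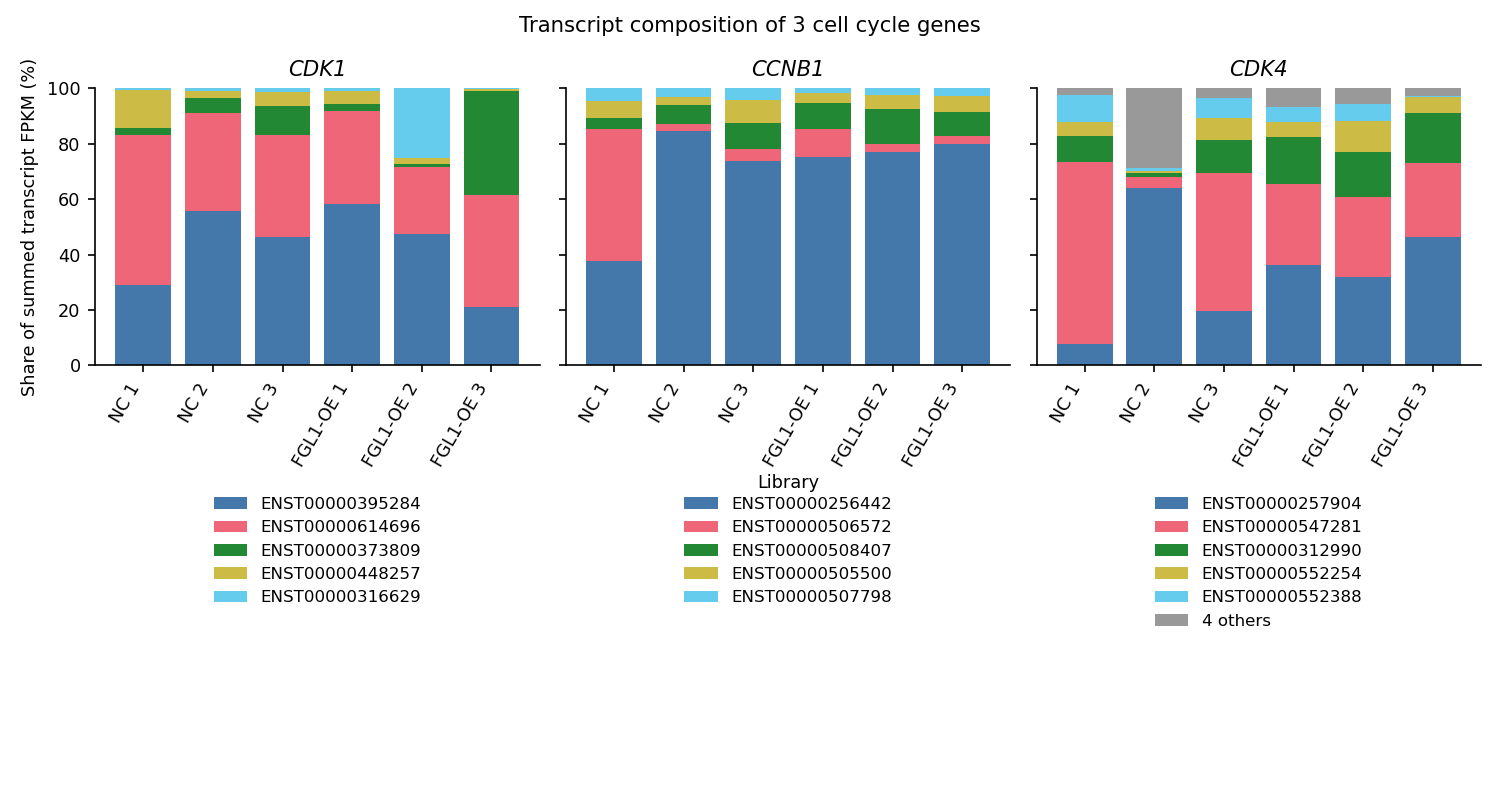
Share (%) of each transcript in the summed FPKM of the transcripts of CDK1, CCNB1 and CDK4, as stacked bars from 0 to 100 for each of the 6 libraries. NC 1 stands apart for CCNB1, NC 2 for CDK4, and FGL1-OE 2 and FGL1-OE 3 for the CDK1 transcripts without the exon.

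CCNE1 was spread over 5 transcripts, led by mean FPKM by ENST00000262643 with 1230 coding bases. Its values were 4.39, 8.58 and 6.58 FPKM in NC and 6.58, 10.9 and 8.22 FPKM in FGL1-OE. The groups overlapped, with a log2 fold change of 0.36 (SE 0.319). It did not lead in every library, since ENST00000575243 was at 9.08 FPKM in NC 1 and ENST00000576532 at 11.7 FPKM in FGL1-OE 1. The summed transcripts of CCNE1 were at 16.7, 17.7 and 18.8 FPKM in NC and at 23.5, 19.9 and 19.3 FPKM in FGL1-OE. The separation seen for the gene was thus seen for this sum and not for ENST00000262643 alone. CDK6 had 2 transcripts that encode the same 978 bases and differ in the rest. The long one, ENST00000265734 of 11612 bases and 39.5% GC, was at 2.60, 5.85 and 3.38 FPKM in NC and at 4.03, 5.16 and 4.52 FPKM in FGL1-OE. The short ENST00000424848 of 1465 bases and 58.2% GC ran the other way among the NC libraries, at 1.64, 0.659 and 1.05 FPKM, and was at 0.535, 0.928 and 0.598 FPKM in FGL1-OE. The share of the long form was 61.3%, 89.9% and 76.3% in NC and 88.3%, 84.8% and 88.3% in FGL1-OE, with p = 0.4 in an exact two-sided permutation test. Such p-values for the share of the most abundant transcript were 0.3 or more for each of the 7 genes with more than 1 transcript. For the leading transcripts ENST00000227507 of CCND1, ENST00000618014 of CCNA2, ENST00000266970 of CDK2, ENST00000267163 of RB1 and ENST00000343380 of E2F1, the log2 fold changes were 0.04, 0.10, 0.40, 0.41 and -0.06. The gene value is not the sum of the transcript values, which was 1.90 to 2.07 times the gene value for CDK1, 1.81 to 3.20 times for CDK4 and 0.554 to 1.53 times for CDK2.

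The surrounding regulators gave a similar picture of small differences. Of 52 other cyclins, CDKs, CDK inhibitors, kinases and phosphatases of CDKs, RB-E2F-DREAM genes and cyclin degradation genes, none passed an adjusted p of 0.05 and 1 passed an unadjusted p of 0.05 (limma), which was WEE1, against 2.01% of all genes. For 6 of the 52 the groups did not overlap, 4 with FGL1-OE higher and 2 lower, against 4.09% and 3.06% of all genes, and the median log2 fold change was 0.08. WEE1, the kinase that holds CDK1 inactive, was at 2.77, 3.11 and 2.74 FPKM in NC and at 2.01, 1.99 and 1.95 FPKM in FGL1-OE, with a log2 fold change of -0.38 (SE 0.136, unadjusted p = 0.0256, adjusted p = 1.00). Without NC 3, or without any 1 of the FGL1-OE libraries, none of the 52 passed an unadjusted p of 0.05. CDKN1B, which encodes the CDK inhibitor p27, was at 38.8, 34.3 and 31.1 FPKM in NC and at 28.4, 22.0 and 30.6 FPKM in FGL1-OE, with NC 3 and FGL1-OE 3 close to each other and a log2 fold change of -0.36 (SE 0.178).

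Among the regulators with FGL1-OE higher, CUL1, the scaffold of the ubiquitin ligase that degrades p27 and cyclin E, was at 19.0, 36.2 and 34.5 FPKM in NC and at 37.0, 45.7 and 45.8 FPKM in FGL1-OE. NC 1 was far below the others, and the log2 fold change was 0.55 (SE 0.257). CCNA1, the germ-line cyclin A, was at 2.70, 3.19 and 3.15 FPKM in NC and at 3.31, 3.79 and 4.03 FPKM in FGL1-OE, with a log2 fold change of 0.23. FOXM1, the activator of G2 and M phase genes, was at 22.1, 29.4 and 29.5 FPKM in NC and at 32.6, 29.6 and 32.2 FPKM in FGL1-OE, where FGL1-OE 2 was barely above NC 3, with a log2 fold change of 0.22. The last of the 4 was CDC25A, a phosphatase that activates CDKs, with a log2 fold change of 0.22.

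By role, the median log2 fold change was 0.19 over 8 other cyclins, 0.10 over 6 other CDKs and partners, 0.07 over 7 CDK inhibitors, 0.02 over 5 kinases and phosphatases of CDKs, 0.07 over 18 genes of the RB family, E2F and DREAM, and 0.19 over 8 genes of cyclin degradation. CDKN2A, which encodes the inhibitor p16 of CDK4 and CDK6, spanned 5.05 to 31.2 FPKM within NC alone, with a log2 fold change of -0.29, and CDKN1A, which encodes p21, had 0.26. Without NC 1 the median over all 52 genes was 0.0066. Without NC 2, 19 of the 52 had an unadjusted p under 0.05, against 21.8% of all genes.

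Genes known to be expressed in G1 and S phase or in G2 and M phase were described in the same way. Of 42 G1/S genes, 28 had a log2 fold change above 0 (66.7%, against 53.7% of all genes) with a median of 0.10, and none passed an unadjusted p of 0.05 (limma), against 2.01% of all genes. For 4 of them the groups did not overlap, FGL1-OE being higher, against 4.09% of all genes. Among them were CDC6, which loads the replicative helicase, with a log2 fold change of 0.20, and PCNA, the clamp of DNA polymerase, with 0.19. PCNA was at 151.6, 180.9 and 164.6 FPKM in NC and at 191.1, 188.5 and 187.6 FPKM in FGL1-OE.

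Of 51 G2/M genes other than the 10, 44 had a log2 fold change above 0 (86.3%, against 53.7% of all genes) with a median of 0.13, and none passed an unadjusted p of 0.05 (limma), against 2.01% of all genes. CDCA3 with 0.27, KIF2C, a kinesin of the mitotic spindle, with 0.22, and CENPA, the histone of centromeres, with 0.15 were the 3 whose groups did not overlap, with FGL1-OE higher, as for 4.09% of all genes. KIF2C was at 44.1, 52.3 and 52.5 FPKM in NC and at 58.6, 56.5 and 57.8 FPKM in FGL1-OE. The direction of both lists rested on NC 1. Without it the medians were -0.03 for the G1/S genes and -0.04 for the G2/M genes, and without NC 2 they were 0.20 and 0.30, with 10 of 42 G1/S and 16 of 51 G2/M genes at an unadjusted p under 0.05, against 21.8% of all genes in that fit.

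**Figure D5:**
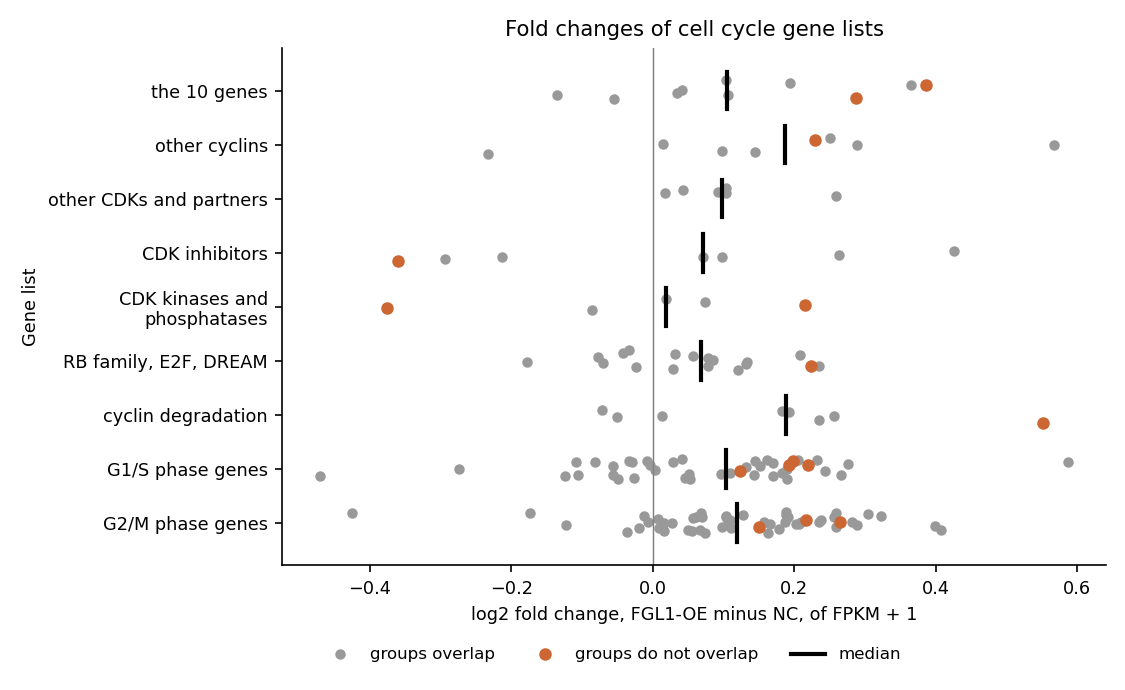
Log2 fold change (FGL1-OE minus NC, of FPKM + 1) of each gene of the cell cycle lists, 1 row a list, with grey points where the groups overlap, orange points where they do not and a black bar at the median. Most genes lie within 0.4 of 0, and the medians of all 9 lists lie between 0.02 and 0.19.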

How the data were processed

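RNA-seq was performed on 3 NC and 3 FGL1-OE libraries of TE1 cells, grouped by the genotype in the labels. The authors deposited FPKM values per library for genes and transcripts, made with StringTie on GRCh37 per the submitters' processing notes. The aligner and versions are not given in the sources used here. The labels name oligo(dT) enrichment and a stranded library kit. The tables also hold the authors' own fold changes and p-values, which were not used. Gene positions are on GRCh37 from the tables. Exons and transcript sequences are from GENCODE v29 (GRCh38), matched by identifier, and promoters from RefSeq. A GC content and a length, those of the gene's most abundant transcript, were found for 97.6% of genes and 99.6% of transcripts.

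Depth is unknown, since FPKM multiplied by length, for genes with 1 transcript and under 1 FPKM, showed no steps of whole reads (strongest period 0.0938 to 0.115 in the 6 libraries, where 1 would be exact steps). Gene FPKM sums were 210904 to 226307 in these libraries.

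The test was limma 3.58.1 (lmFit and eBayes) in R 4.3.3 on log2(FPKM + 1), a scale that understates the change of low genes, for the 12017 genes and 30330 transcripts whose average reached 0.5 FPKM. Benjamini-Hochberg adjustment ran over each whole table, with a threshold of 0.05. Exact permutation tests were two-sided. The code was tested on simulated data. Sequence steps used Python 3.11.15. Alternatives were another pseudocount (0.1), all features or only those averaging 1 FPKM, TPM scaling, quantile normalization, median centring, a replicate block, an ordinary linear model, array weights, each library left out, transcript sums and, added after the data were seen, removal of the GC and length trend with loess.

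The 10 genes, the gene lists and the tests were chosen with earlier results of these data known. Named are FGL1, the 10 genes, from the other lists each gene with an adjusted p under 0.05 and the 3 largest rises and falls among genes whose groups do not overlap, and of the transcripts the most abundant of each gene and those with p under 0.05 or groups that do not overlap. WEE1 as the 1 gene with an unadjusted p under 0.05 falls under this rule, and CDC25A, CDKN2A, CDKN1A, the markers and the other transcripts described were chosen after their values were seen. A gene that the rule names is not reported here.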

Additional observations from a re-analysis of the deposited data

How the results depend on the processing

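The call that no gene of the 10 and none of their transcripts passed an adjusted p of 0.05 held under every alternative for the transcripts and under all but 1 for the genes. With array weights (0.230 for NC 1, 0.141 for NC 2 and 5.59 for NC 3), CCNA2 (0.33, adjusted p = 0.0391) and RB1 (0.52, adjusted p = 0.0278) passed, so 2 of the 10 genes did, among 1327 genes in all (11.0%), with 4066 genes at an unadjusted p under 0.05. The same weights gave unadjusted p-values under 0.05 to 4 of the 10 genes, 4 of their transcripts, 23 other regulators, 15 G1/S genes and 20 G2/M genes, and 37 transcripts with an adjusted and 4175 with an unadjusted p under 0.05. They turned the log2 fold changes of CCND1 (-0.0086) and ENST00000227507 (-0.0056), and ENST00000395284 of CDK1 was -0.18 with weights, -0.033 with quantile normalization and -0.10 without the GC trend. Removing the GC and length trend gave 2 genes with an adjusted and 753 with an unadjusted p under 0.05, 2 of the 10 genes, 6 other regulators, 1 G1/S and 2 G2/M genes with an unadjusted p under 0.05, and a median of 0.031 for the 10 genes, and it turned CDK1 (-0.0027), CDK2 (-0.0074), E2F1 (0.029) and ENST00000343380 (0.0012). An ordinary linear model gave 2 genes with an adjusted and 374 with an unadjusted p under 0.05, 1 G1/S and 1 G2/M gene with an unadjusted p under 0.05 and 3 transcripts with an adjusted p under 0.05, and a pseudocount of 0.1 gave 29 such transcripts. The cause was not tested.

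With a replicate block, 0 transcripts passed an adjusted p of 0.05, and 1 transcript of the 10 genes and 2 other regulators had an unadjusted p under 0.05. Libraries of the same number correlated with r of 0.35, 0.28 and -0.06 in their deviations from the group means, and libraries of different numbers with r of -0.37 to 0.14. The main fit did not take the numbers as pairs, and whether libraries of the same number share a batch was not tested.

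Leaving out 1 library at a time, genes with an adjusted p under 0.05 numbered 1 to 7 and with an unadjusted p 137 (without FGL1-OE 3) to 2618 (without NC 2), and transcripts 1 to 28 and 874 to 2738. At an unadjusted p under 0.05 were 0 to 3 of the 10 genes, 0 to 4 of their transcripts, 0 to 19 other regulators, 0 to 10 G1/S genes and 0 to 16 G2/M genes, each highest without NC 2. The medians ran from 0.061 to 0.31 for the 10 genes, 0.0066 to 0.15 for the other regulators, -0.03 to 0.20 for the G1/S genes and -0.04 to 0.30 for the G2/M genes. Log2 fold changes ran from -0.014 to 0.079 for CCND1, -0.22 to 0.44 for CDK1, -0.10 to 0.17 for CDK2 and -0.25 to 0.16 for E2F1, and kept their sign for the other 6 genes, at 0.14 to 0.36 for CCNE1, 0.0014 (without NC 3) to 0.25 for CCNA2, 0.21 to 0.50 for CCNB1, -0.20 to -0.05 for CDK4, 0.01 (without NC 1) to 0.44 for CDK6 and 0.12 (without NC 1) to 0.68 for RB1. Among leading transcripts they ran from -0.011 to 0.080 for ENST00000227507, -0.0016 to 0.25 for ENST00000618014, -0.56 to 0.51 for ENST00000395284, -1.51 to 0.68 for ENST00000547281 and -0.25 to 0.16 for ENST00000343380.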
